A study of Mus musculus with 91 samples.

Results

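Ciart, Bhlhe40 and Bhlhe41 encode transcriptional repressors of the circadian clock. They were taken by their Ensembl identifiers (ENSMUSG00000038550, ENSMUSG00000030103 and ENSMUSG00000030256) and are 3 of the 14355 genes in the deposited counts of ribosome-associated mRNA from the mouse nucleus accumbens. All 3 were counted in every one of the 91 libraries. The D1 libraries (n = 45, of which 22 male and 23 female) came from Drd1-Cre mice and the D2 libraries (n = 46, of which 23 male and 23 female) from A2a-Cre mice, and mice of both lines also carried RiboTag, a ribosomal protein (Rpl22) that gains a hemagglutinin (HA) tag where Cre is active. All mice were over 10 weeks old and lived in 12 h of light and 12 h of dark. Tissue was taken at Zeitgeber times (ZT, hours after lights on) 2, 6, 10, 14, 18 and 22, each sample pooled the tissue of 2 mice, and tagged ribosomes were pulled down with an antibody. The 24 groups of cell type, sex and time hold 3 or 4 libraries each, and the titles also mark each library with a letter, A to E, of unstated meaning. Because each cell type has a Cre line of its own, line and cell type cannot be told apart, and nothing in the labels says that replicate libraries came from separate dissections, so p-values measure only the spread between these samples. The deposited identifiers carry no gene names, so the labelled cell types could not be checked against marker genes.

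In the mammalian clock, the transcription factors CLOCK and BMAL1 bind E-box sequences as a pair and drive a daily cycle of transcription that includes the genes of their own repressors. Ciart, also called Chrono, encodes a protein that binds BMAL1 and represses the activity of the pair. Bhlhe40 (also DEC1) and Bhlhe41 (also DEC2) encode related basic helix-loop-helix proteins that bind E-boxes themselves and repress transcription there. The nucleus accumbens, part of the ventral striatum, handles reward and motivation, and its spiny neurons divide largely into those with the dopamine receptor D1 and those with D2.

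Promoter sequences are shown because all these genes are known as E-box targets of the clock. RefSeq (build GRCm38.p6) has a promoter entry for Ciart and Bhlhe41. Each runs from 250 bases before the start site to 50 after it, on the minus strand, and capitals mark the E-box CACGTG. The window of Ciart is chr3:95882179-95882478 and that of Bhlhe41 is chr6:145865371-145865670.
Ciart: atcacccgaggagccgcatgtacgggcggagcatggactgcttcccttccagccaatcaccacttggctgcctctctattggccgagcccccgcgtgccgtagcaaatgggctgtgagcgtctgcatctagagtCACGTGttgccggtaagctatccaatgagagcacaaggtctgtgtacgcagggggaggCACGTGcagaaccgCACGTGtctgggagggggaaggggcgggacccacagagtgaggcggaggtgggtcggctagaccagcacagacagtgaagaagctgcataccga
Bhlhe41: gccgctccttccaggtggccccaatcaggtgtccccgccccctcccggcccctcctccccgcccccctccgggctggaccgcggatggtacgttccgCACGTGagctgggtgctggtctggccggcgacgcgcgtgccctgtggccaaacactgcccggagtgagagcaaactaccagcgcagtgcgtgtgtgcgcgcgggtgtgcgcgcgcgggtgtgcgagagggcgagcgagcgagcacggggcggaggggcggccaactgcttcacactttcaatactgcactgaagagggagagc
The Ciart window holds 3 E-boxes, whose first bases lie at positions -116, -58 and -44 from the start site of its promoter entry. That site lies slightly inside the Ciart gene bounds given below. The Bhlhe41 window holds 1, at -153. Of 32851 RefSeq mouse promoters of the same length, 7.15% hold at least 1 E-box and 0.0883%, or 29 promoters, hold at least 3. The E-prime box CACGTT (in 4.68% of promoters), the D-box TTATGTAA (0.938%), the ROR element TAGGTCA (2.61%) and the cAMP response element TGACGTCA (1.79%), searched on both strands, have no match in either window. A match is a description of these letters only.

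Ciart lies at chr3:95878500-95882257, Bhlhe40 at chr6:108660629-108666925 and Bhlhe41 at chr6:145858243-145865420 in the same build. The RefSeq gene C920021L13Rik covers the whole 3758 bases of Ciart, and another RefSeq gene, 0610040F04Rik, shares 306 bases with Bhlhe40. No other RefSeq gene overlaps Bhlhe41. The sources used here do not give the strand setting of the counting. How reads in the bases that Ciart and Bhlhe40 share with these genes were counted is therefore not known.

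Libraries held 6872165 to 24665262 counts (14296688 ± 3740182, mean ± SD). Ciart had 63 to 303 counts in a D1 library and 46 to 393 in a D2 library. Bhlhe40 had 179 to 889 counts in D1 and 222 to 1317 in D2 libraries, and Bhlhe41 had 692 to 1948 in D1 and 806 to 2642 in D2 libraries. Levels below are CPM, counts scaled to a common library size after TMM, which corrects totals for differences in composition. CPM is not corrected for gene length, so no level is set against that of another gene. In bulk pull-downs, fewer cells of a type and less RNA per cell cannot be told apart.

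3 male D1 libraries stand apart from the rest, those of ZT10 letter B, ZT18 letter D and ZT22 letter B. They list 205 to 789 genes at 0, against at most 3 in any other D1 library. Ciart was outside the range of the other D1 libraries of its time in all 3 of them. It was at 10.8 CPM in the ZT10 library against 14.9 to 19.9 CPM in the other 7, at 15.9 CPM in the ZT18 library against 8.36 to 11.5 CPM in the other 5, and at 5.51 CPM in the ZT22 library against 6.40 to 8.29 CPM in the other 7. Bhlhe40 was outside that range in 2 of the 3 and Bhlhe41 in 2 of the 3. The edgeR tests run without the letters on D1 libraries are therefore also given without these 3, as are some D1 means. Other D1 values, such as peak differences, amplitudes by sex, values by letter and correlations of daily courses, include them.

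The first comparison asks whether each repressor follows the day within a cell type. Ciart did so in both, with a level near the end of the light phase that was about 2 times that near the end of the dark phase. In D1 neurons Ciart ranged over 6.92 to 10.6 CPM at ZT2 (median 8.88, n = 8), 9.71 to 12.4 at ZT6 (median 11.6, n = 8) and 10.8 to 19.9 at ZT10 (median 15.9, n = 8). In the dark it ranged over 11.5 to 17.8 CPM at ZT14 (median 16.1, n = 7), 8.36 to 15.9 at ZT18 (median 10.0, n = 6) and 5.51 to 8.29 at ZT22 (median 7.68, n = 8). D1 means were highest at ZT10 and ZT14 and lowest at ZT22, and no ZT10 library overlapped a ZT22 library. Both times were picked from these same values, and the share of all genes with such a gap was not counted. In order of the D1 means, ZT22, ZT2, ZT18, ZT6, ZT14 and ZT10, a step beyond the larger of the neighbours' SDs separated ZT22 from ZT2 and ZT6 from ZT14, and the other 3 of the 5 steps were smaller than it.

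In D2 neurons Ciart ranged over 7.10 to 9.82 CPM at ZT2 (median 7.77, n = 7), 7.98 to 15.2 at ZT6 (median 10.1, n = 7) and 11.9 to 20.8 at ZT10 (median 16.0, n = 8). In the dark it ranged over 12.3 to 16.2 CPM at ZT14 (median 13.5, n = 8), 7.69 to 9.96 at ZT18 (median 8.50, n = 8) and 6.80 to 9.19 at ZT22 (median 8.02, n = 8). Again ZT10 and ZT14 were high and ZT22 low, and ZT10 did not overlap ZT22, times again picked from the same values. Along the D2 means, in the same order of times as in D1, a single step of 5 exceeded the larger SD, that from ZT6 to ZT14.

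Mean Ciart was 15.9 ± 2.67 CPM at ZT10 and 7.33 ± 0.995 CPM at ZT22 in D1 neurons (SD, n = 8 each), a ratio of 2.17. In D2 neurons it was 16.0 ± 2.81 CPM at ZT10 and 8.13 ± 0.934 CPM at ZT22 (SD, n = 8 each), a ratio of 1.97. A 24 h cosine was fitted to the counts with edgeR, and its amplitude is the log2 height from mean to peak. In D1 neurons the Ciart amplitude was 0.55 ± 0.05 (SE) with a peak at ZT 11.4 ± 0.38 h (SE), a peak to trough ratio of 2.13 (edgeR quasi-likelihood test, Benjamini-Hochberg adjusted p = 9.06e-09). In D2 neurons it was 0.52 ± 0.05 (SE) with a peak at ZT 11.0 ± 0.37 h (SE), a peak to trough ratio of 2.05 (edgeR adjusted p = 5.36e-09). Ciart had the lowest p of all 14355 genes in D1, where 71 genes (0.495%) passed the adjusted threshold of 0.05, and ranked 2 in D2, where 422 genes (2.94%) passed. The median amplitude of all genes was 0.09 in D1 and 0.07 in D2, and the Ciart amplitude stood at the 99.8 percentile in each.

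Without the 3 D1 libraries that stand apart, mean Ciart in D1 was 16.6 ± 1.84 CPM at ZT10 and 7.59 ± 0.721 CPM at ZT22 (SD, n = 7 each), and the amplitude was 0.56 (edgeR adjusted p = 4.64e-11). Ciart passed the threshold in all 12 D1 and all 10 D2 alternatives run, with amplitudes of 0.52 to 0.57 in D1 and 0.51 to 0.52 in D2. Fitted within single letters, with 9 to 12 libraries each and no test, the amplitude was 0.53 to 0.60 in D1 and 0.51 to 0.55 in D2. The peak within single letters lay at ZT 9.0 h in D1 letter B and between ZT 11.2 and ZT 11.9 h in D1 letters A, C and D. Letter B in D1 has 9 libraries with none at ZT18, and holds the ZT10 and ZT22 libraries that stand apart. In D2 it lay between ZT 10.1 and ZT 12.0 h.

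**Figure D1:**
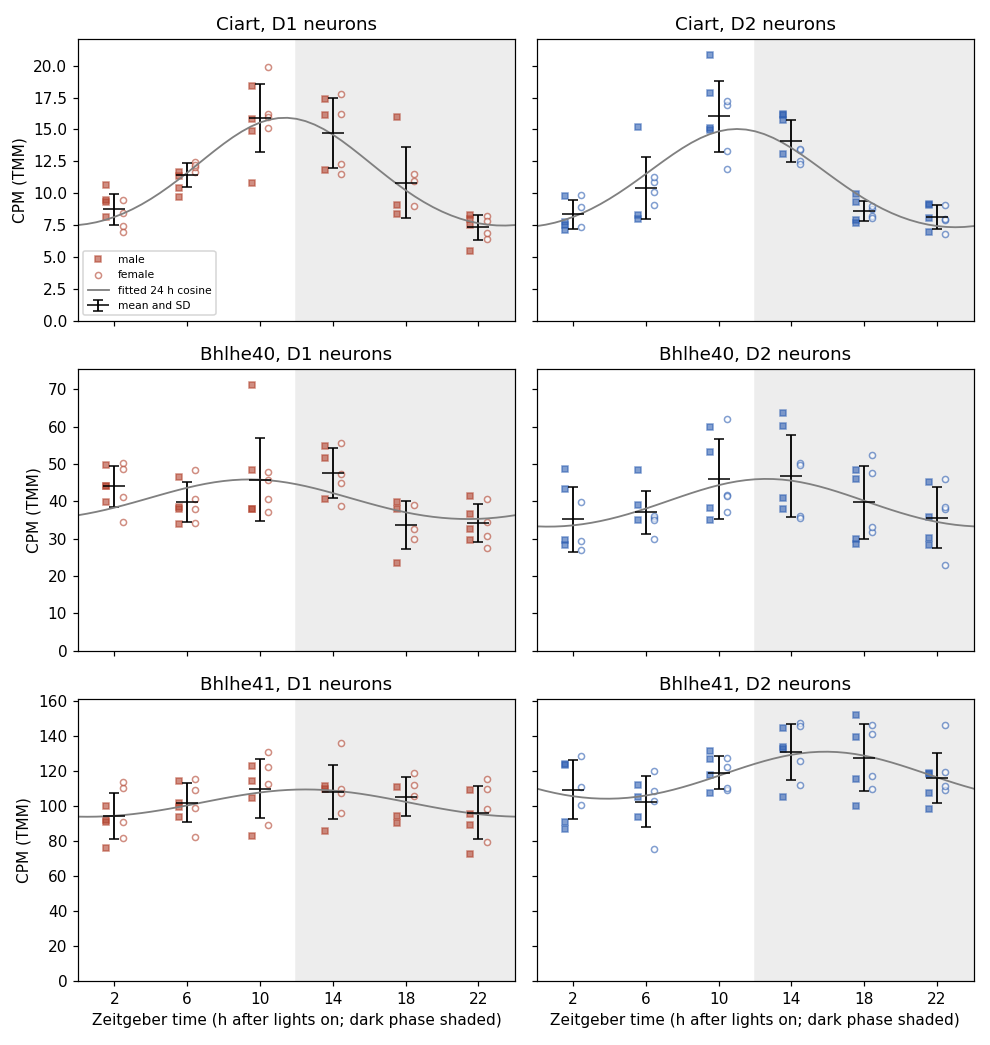
CPM of Ciart, Bhlhe40 and Bhlhe41 (rows) in D1 (left) and D2 (right) libraries against Zeitgeber time in hours, with the dark phase shaded; each point is a library (squares male, open circles female), bars are mean and SD over both sexes, and the curve is the fitted 24 h cosine. Ciart is highest at ZT10 and lowest at ZT22 in both cell types, while Bhlhe40 and Bhlhe41 libraries overlap between their highest and lowest times.

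Bhlhe40 did not pass the test of a daily rhythm in D1 neurons. Its D1 libraries ranged over 34.4 to 50.2 CPM at ZT2 (median 44.2, n = 8), 34.1 to 48.5 at ZT6 (median 38.3, n = 8) and 37.2 to 71.2 at ZT10 (median 43.2, n = 8). They ranged over 38.7 to 55.7 CPM at ZT14 (median 47.4, n = 7), 23.4 to 39.8 at ZT18 (median 35.3, n = 6) and 27.5 to 41.5 at ZT22 (median 33.5, n = 8). D1 libraries of ZT18 and ZT22 tended to be low, and 6 of the 7 libraries of ZT14 were above all libraries of ZT18. In order of the D1 means, ZT18, ZT22, ZT6, ZT2, ZT10 and ZT14, 1 step of 5 exceeded the larger SD, that between ZT22 and ZT6. The fitted D1 amplitude was 0.19 ± 0.06 (SE) with a peak at ZT 9.4 ± 1.2 h (SE), and the edgeR adjusted p was 0.213. Without the 3 libraries that stand apart, the ZT10 mean was 42.2 ± 4.92 CPM (SD, n = 7) and the amplitude 0.12 (edgeR adjusted p = 0.399).

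In D2 neurons Bhlhe40 missed the threshold in the edgeR fit without the letters and passed it with the letter as a block. Its D2 libraries ranged over 27.1 to 48.8 CPM at ZT2 (median 29.7, n = 7), 29.9 to 48.5 at ZT6 (median 35.5, n = 7) and 34.9 to 62.2 at ZT10 (median 41.5, n = 8). They ranged over 35.4 to 63.7 CPM at ZT14 (median 45.3, n = 8), 28.7 to 52.3 at ZT18 (median 39.6, n = 8) and 23.1 to 46.1 at ZT22 (median 37.0, n = 8). The times overlapped widely: 4 of the 8 libraries of ZT14, the highest mean, were above all libraries of ZT2, the lowest. In order of the D2 means, ZT2, ZT22, ZT6, ZT18, ZT10 and ZT14, none of the 5 steps exceeded the larger SD. The D2 amplitude was 0.23 ± 0.06 (SE) with a peak at ZT 12.6 ± 1.1 h (SE; edgeR adjusted p = 0.0817). With the letter as a block it was 0.23 ± 0.04 (SE), peaking at ZT 12.3 ± 0.60 h (SE; edgeR adjusted p = 3.56e-05), in a fit in which 3198 genes (22.3%) passed. DESeq2 also placed it past the threshold (adjusted p = 0.0372). These were the only 2 of 10 alternatives in which it passed. With 1 letter left out the edgeR adjusted p was 0.133 to 0.422, and with time as 6 levels it was 0.656. Fitted within single D2 letters, without a test, the amplitude was 0.27 in A, 0.29 in B, 0.31 in C and 0.10 in D.

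Bhlhe41 passed the rhythm test in D2 neurons and not in D1 neurons. In D1 neurons its libraries ranged over 75.8 to 114 CPM at ZT2 (median 91.5, n = 8), 82.0 to 115 at ZT6 (median 101, n = 8) and 82.7 to 131 at ZT10 (median 113, n = 8). They ranged over 85.3 to 136 CPM at ZT14 (median 109.6, n = 7), 90.4 to 119 at ZT18 (median 108, n = 6) and 72.7 to 115 at ZT22 (median 96.8, n = 8). The D1 times overlapped, with 4 of the 8 libraries of ZT10, the highest mean, above all libraries of ZT2, the lowest. The D1 means ran, lowest first, ZT2, ZT22, ZT6, ZT18, ZT14 and ZT10, with none of the 5 steps beyond the larger SD. The D1 amplitude was 0.11 ± 0.04 (SE) with a peak at ZT 12.5 ± 1.4 h (SE; edgeR adjusted p = 0.329), and without the 3 libraries that stand apart it was 0.10 (edgeR adjusted p = 0.335).

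In D2 neurons Bhlhe41 ranged over 87.0 to 128 CPM at ZT2 (median 111, n = 7), 75.2 to 120.1 at ZT6 (median 105, n = 7) and 107 to 132 at ZT10 (median 119.8, n = 8). It ranged over 105 to 147 CPM at ZT14 (median 133, n = 8), 99.99 to 152 at ZT18 (median 128, n = 8) and 98.0 to 146 at ZT22 (median 115, n = 8). The high times were ZT14 and ZT18, and 6 of the 8 libraries of ZT14 were above all 7 of ZT6, the lowest time. The D2 means ran, lowest first, ZT6, ZT2, ZT22, ZT10, ZT18 and ZT14, with none of the 5 steps beyond the larger SD. Mean Bhlhe41 was 102 ± 14.5 CPM at ZT6 (SD, n = 7) and 131 ± 15.8 CPM at ZT14 (SD, n = 8), and the fitted amplitude was 0.17 ± 0.04 (SE) with a peak at ZT 15.9 ± 0.91 h (SE; edgeR adjusted p = 0.0351). With the letter as a block the amplitude was 0.17 ± 0.02 (SE; edgeR adjusted p = 3.04e-06). The call was lost without letter B (edgeR adjusted p = 0.246), C (0.200) or D (0.214) and with time as 6 levels (0.322), at amplitudes of 0.16 to 0.17. Within single D2 letters the peak lay between ZT 15.1 and ZT 16.8 h, and within single D1 letters between ZT 8.7 and ZT 15.8 h.

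**Figure D2:**
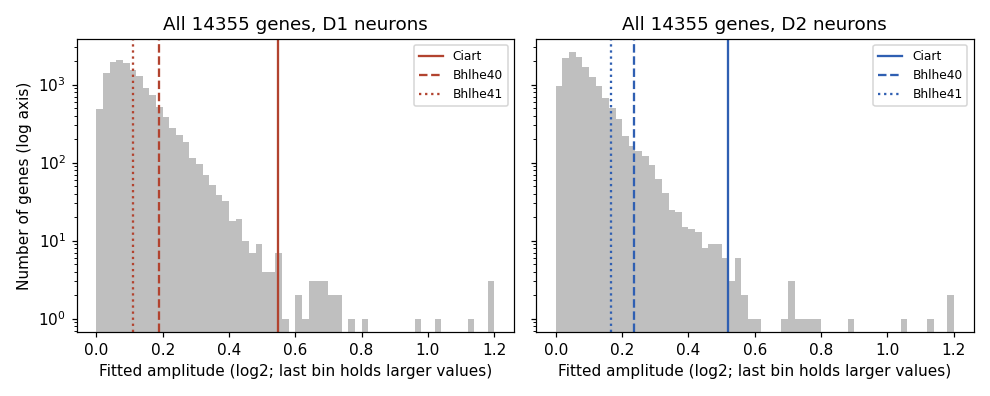
Number of genes (log axis) by fitted 24 h amplitude (log2, mean to peak) over all 14355 genes in D1 (left) and D2 (right) neurons, with a line for each repressor. Ciart stands in the upper tail of both distributions, at the 99.8 percentile; Bhlhe40 stands at the 87.3 percentile in D1 and 95.5 in D2, and Bhlhe41 at 60.6 in D1 and 88.3 in D2.

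The next comparison asks whether the daily course of a repressor differed between D1 and D2 neurons. None of the 3 passed that test, which 2 genes (0.0139%) passed. For Ciart, D1 minus D2 was 0.03 ± 0.07 in log2 amplitude (SE, 95% interval -0.11 to 0.17) and 0.35 ± 0.53 h in peak time (SE, 95% interval -0.68 to 1.39 h; edgeR adjusted p of the rhythm difference = 0.891). Both intervals hold 0. For Bhlhe40 the peak was earlier in D1 by a fitted difference of -3.19 ± 1.57 h (SE, 95% interval -6.26 to -0.12 h), and the test of both terms gave an edgeR adjusted p of 0.684. For Bhlhe41 the peak difference was -3.37 ± 1.68 h (SE, 95% interval -6.66 to -0.07 h), with an edgeR adjusted p of 0.630. The intervals are for single genes and are not adjusted. Before adjustment, the edgeR test of both terms gave a p of 0.144 for Bhlhe40 and 0.0849 for Bhlhe41. The Bhlhe40 and Bhlhe41 curves that the intervals come from did not pass the rhythm test in D1. In the fit without the letters, Bhlhe40 did not pass it in D2 either (edgeR adjusted p = 0.0817).

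In the fit with the letter as a block, a differing rhythm was called for 76 genes (0.529%). From the separate blocked fits of D1 and D2 the Bhlhe41 peak difference was -4.09 ± 1.30 h (SE). The joint test gave it an edgeR adjusted p of 0.145, and of 0.0566 when D1 and D2 letters were blocked separately. Bhlhe40 had -2.46 ± 1.29 h (SE; edgeR adjusted p = 0.474) and Ciart 0.18 ± 0.51 h (SE; edgeR adjusted p = 0.902) with the letter as a block. The blocked 95% interval of the peak difference was -6.63 to -1.55 h for Bhlhe41, and for Bhlhe40 it held 0, at -4.99 to 0.07 h. Without the 3 D1 libraries that stand apart, the edgeR adjusted p of the rhythm difference was 0.949 for Ciart, 0.889 for Bhlhe40 and 0.858 for Bhlhe41. The D1 peak without them was at ZT 10.0 h for Bhlhe40 and ZT 13.1 h for Bhlhe41, nearer to the D2 peaks of ZT 12.6 h and ZT 15.9 h. With the block as well, the D1 peaks were at ZT 10.7 h and ZT 12.4 h. Intervals of the peak difference were not computed without these libraries. None of the 3 genes passed in any of the 11 alternatives run.

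**Figure D3:**
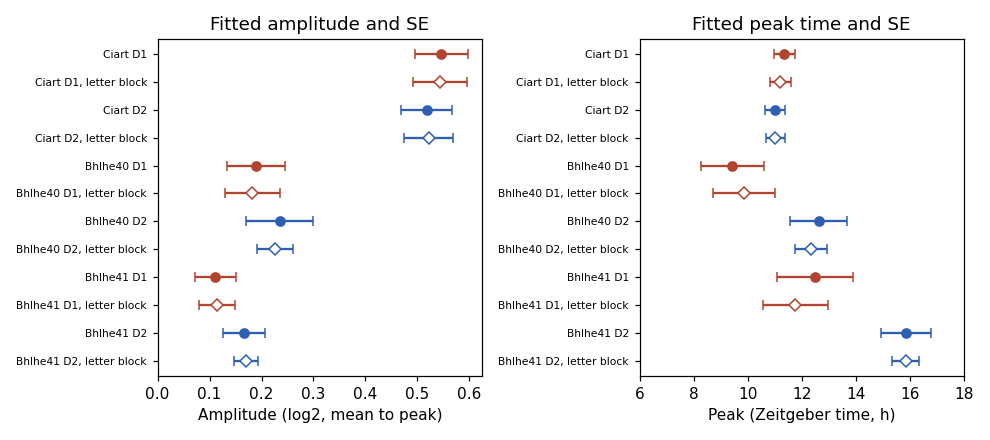
Fitted 24 h amplitude (left, log2 from mean to peak) and peak time (right, Zeitgeber time in hours) with SE for each repressor in D1 (red) and D2 (blue) neurons, without (filled circles) and with (open diamonds) the letter as a block. Ciart peaks at ZT 11.4 h in D1 and ZT 11.0 h in D2, while the fitted Bhlhe40 and Bhlhe41 peaks lie earlier in D1 than in D2.

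The comparison of mean levels over the whole day asks which repressors are higher or lower in D1 than in D2 neurons. Bhlhe41 was lower in D1 neurons, at 72.7 to 136 CPM (median 105, n = 45), against 75.2 to 152 CPM (median 117, n = 46) in D2 neurons. The libraries overlapped widely, and the averages were 102 ± 14.5 CPM in D1 and 118 ± 17.4 CPM in D2 (SD). The D1 minus D2 difference was -0.20 ± 0.04 on the log2 scale (SE, 95% interval -0.28 to -0.12; edgeR adjusted p = 5.96e-05). Across all genes 2770 (19.3%) passed this test, 1415 of them (9.86%) lower in D1, and the median of all genes was -0.01. With the letter as a block 5471 of 14355 genes passed, and the Bhlhe41 difference was -0.20 (edgeR adjusted p = 8.69e-08). The fit without the letters counts libraries as independent, though all 243 same-letter pairs of D2 libraries deviated together, with correlations above 0.1. D2 letter means of Bhlhe41 ran from 100.8 to 130.2 CPM, and the block takes that spread out of the error. Neither p-value therefore treats the letters as the units.

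The D1 mean of Bhlhe41 was below the D2 mean at all 6 times, with a ratio of D1 over D2 between 0.825 and 0.993. It was 94.3 in D1 against 109 CPM in D2 at ZT2, 101.7 against 102.5 CPM at ZT6, and 109.8 against 119 CPM at ZT10. It was 108 in D1 against 131 CPM in D2 at ZT14, 105 against 128 CPM at ZT18, and 96.1 against 116 CPM at ZT22. The means were closest at ZT6 and furthest apart at ZT14. By letter, the D1 mean was also the lower in all 4, at 97.3 against 100.8 CPM in letter A, 92.5 against 114 CPM in B, 111 against 130.2 CPM in C and 105 against 126 CPM in D. Whether a letter means the same in both cell types is not known. The D1 means in C and D lay above the D2 mean in A, so this count depends on matching by letter. Bhlhe41 was called lower in D1 in all 11 alternatives run, with differences of -0.24 to -0.16 and adjusted p from 8.59e-09 to 0.0147, and was at -0.18 without the 3 libraries that stand apart (edgeR adjusted p = 1.89e-04).

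Ciart averaged 11.4 ± 3.65 CPM in D1 libraries and 11.0 ± 3.56 CPM in D2 libraries (SD, n = 45 and n = 46), a log2 difference of 0.06 ± 0.05 (SE, 95% interval -0.04 to 0.16; edgeR adjusted p = 0.393). Bhlhe40 averaged 41.1 ± 8.56 CPM in D1 libraries and 40.3 ± 9.95 CPM in D2 libraries (SD, n = 45 and n = 46), a log2 difference of 0.03 ± 0.06 (SE, 95% interval -0.09 to 0.16; edgeR adjusted p = 0.718). Neither passed the test, and the sign of the Bhlhe40 difference was negative without letter C, at -0.018. Without the 3 D1 libraries that stand apart, the log2 difference was 0.07 for Ciart (edgeR adjusted p = 0.317) and 0.04 for Bhlhe40 (edgeR adjusted p = 0.648). At single times, the D1 mean was the lower at 2 of 6 times for Ciart and at 3 of 6 for Bhlhe40.

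**Figure D4:**
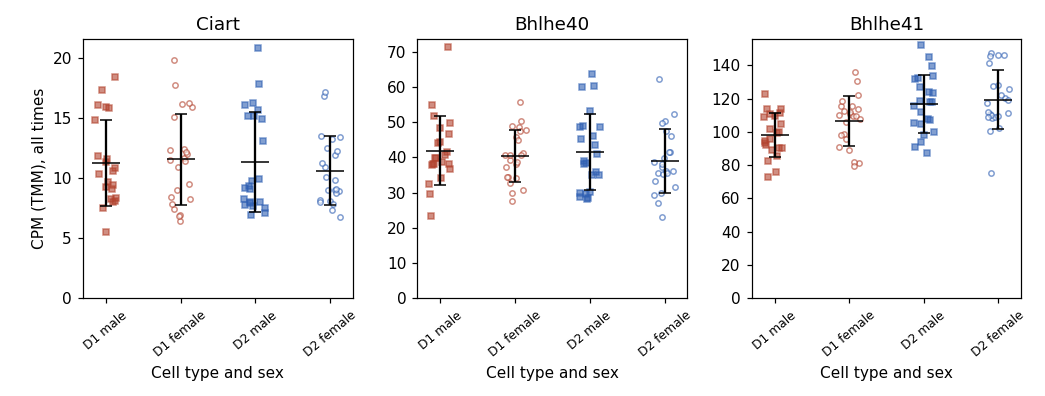
CPM of each repressor in D1 male, D1 female, D2 male and D2 female libraries over all times; points are libraries, and bars are mean and SD. Bhlhe41 averages 98.1 CPM in D1 males and 106 in D1 females, against 117 in D2 males and 119 in D2 females.

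Males and females were compared within each cell type. In D1 neurons 6 genes (0.0418%) passed the test of mean level and in D2 neurons 31 (0.216%), and none of the repressors was among them. With the letter as a block 1042 of 14355 genes passed in D1 and 1357 in D2, again with none of the repressors among them. Bhlhe41 in D1 neurons was at 72.7 to 123 CPM in males (median 97.5, n = 22) and 79.2 to 136 CPM in females (median 109.6, n = 23). The sexes overlapped, with averages of 98.1 ± 13.1 CPM in males and 106 ± 15.0 CPM in females (SD). The male minus female difference was -0.11 ± 0.06 on the log2 scale (SE, 95% interval -0.23 to 0.0030; unadjusted p = 0.0560, edgeR adjusted p = 0.334). The 3 D1 libraries that stand apart are all male, and without them the difference was -0.08 (edgeR adjusted p = 0.711). In D2 neurons Bhlhe41 averaged 117 ± 17.4 CPM in males and 119 ± 17.7 CPM in females (SD, n = 23 each), a log2 difference of -0.03 ± 0.06 (SE).

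Ciart averaged 11.3 ± 3.58 CPM in males (n = 22) and 11.6 ± 3.80 CPM in females (n = 23) in D1 neurons (SD), and 11.4 ± 4.17 CPM in males and 10.6 ± 2.87 CPM in females in D2 neurons (SD, n = 23 each). Bhlhe40 averaged 41.8 ± 9.79 CPM in males (n = 22) and 40.4 ± 7.35 CPM in females (n = 23) in D1 neurons (SD), and 41.5 ± 10.8 CPM in males and 39.0 ± 9.08 CPM in females in D2 neurons (SD, n = 23 each). These sex differences were smaller than the spread between libraries, and the 95% intervals of the log2 difference held 0 for both genes in both cell types. Without the 3 male libraries that stand apart, the log2 difference in D1 was 0.01 for Ciart (edgeR adjusted p = 0.950) and 0.07 for Bhlhe40 (edgeR adjusted p = 0.787). In D1 the sign turned to negative for Ciart without letter A (-0.026) or D (-0.042) and for Bhlhe40 without letter A (-0.0090).

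The rhythm of each repressor was also compared between males and females. No gene of the 14355 passed this test in either cell type (0%) in the edgeR fit without the letters. In that fit 226 genes in D1 and 389 in D2 had an unadjusted p under 0.05. DESeq2 called 0 genes in D1 and 2 in D2. With the letter as a block edgeR called 0 genes in D1 and 3 in D2, none of them a repressor. Within D1 neurons the Ciart amplitude was 0.49 ± 0.07 in male and 0.60 ± 0.07 in female libraries (SE). Within D2 neurons it was 0.59 ± 0.07 in male and 0.45 ± 0.07 in female libraries (SE), the opposite order. The D1 amplitudes include the 3 male libraries that stand apart. The size of the Ciart rhythm difference between the sexes in D1 was 0.12 with them and 0.09 without. The fitted Ciart peak lay between ZT 10.8 and ZT 11.6 h in all 4 combinations of cell type and sex. The male minus female rhythm difference of Ciart had an edgeR adjusted p of 1.000 in both cell types. In D1 without the 3 male libraries that stand apart, the edgeR adjusted p was 1.000 for each of the repressors.

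Whether the daily course departs from a 24 h cosine was tested with time as 6 levels. No gene passed in either cell type with edgeR (0%) or with DESeq2, while 262 genes in D1 and 81 in D2 had an unadjusted edgeR p under 0.05. The course of Bhlhe40 in D1 neurons departed most at ZT2, where it lay 0.19 above the cosine on the log2 scale (unadjusted p = 0.00506, edgeR adjusted p = 0.999). Without the 3 D1 libraries that stand apart this departure was also 0.19 (edgeR adjusted p = 0.721), and the edgeR adjusted p was 0.911 for Ciart and 0.963 for Bhlhe41. Ciart in D2 neurons lay 0.16 below the cosine at ZT18, a departure of -0.16 (unadjusted p = 0.0130, edgeR adjusted p = 1.000). In the D2 values above, Ciart at ZT18 had already reached the levels of ZT2 and ZT22.

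In D2 neurons Bhlhe40 and Bhlhe41 differed between the letters in opposite directions. Bhlhe40 averaged 48.8 ± 9.15 CPM in letter A (n = 12), 46.0 ± 8.10 in B (n = 10), 32.1 ± 5.65 in C (n = 12) and 35.1 ± 5.02 in D (n = 12; SD). Bhlhe41 averaged 100.8 ± 10.5 CPM in A, 114 ± 12.5 in B, 130.2 ± 17.1 in C and 126 ± 11.4 in D (SD, same n). Letter A was above C for Bhlhe40 in 12 of 12 groups of sex and time (median ratio 1.53) and below C for Bhlhe41 in 12 of 12 (median ratio 0.755). Ciart showed no such split, with letter A above C in 7 of 12 groups (median ratio 1.01) and means of 10.9 CPM in A, 11.5 in B, 10.1 in C and 11.6 in D. Mean totals of D2 libraries were 19727033 counts in A, 16241681 in B, 11336342 in C and 10904585 in D, so depth moved with these levels, and its part in them was not tested.

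In D1 neurons letter A was above C for Bhlhe40 in 10 of 12 groups (median ratio 1.13) and for Bhlhe41 in 2 of 12 (median ratio 0.862). Bhlhe40 means in D1 were 43.1 CPM in A, 46.3 in B, 37.6 in C and 39.1 in D. Bhlhe41 means in D1 were 97.3 CPM in A, 92.5 in B, 111 in C and 105 in D. The order of letters A and C was the same in D1 as in D2, with median ratios nearer to 1.

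**Figure D5:**
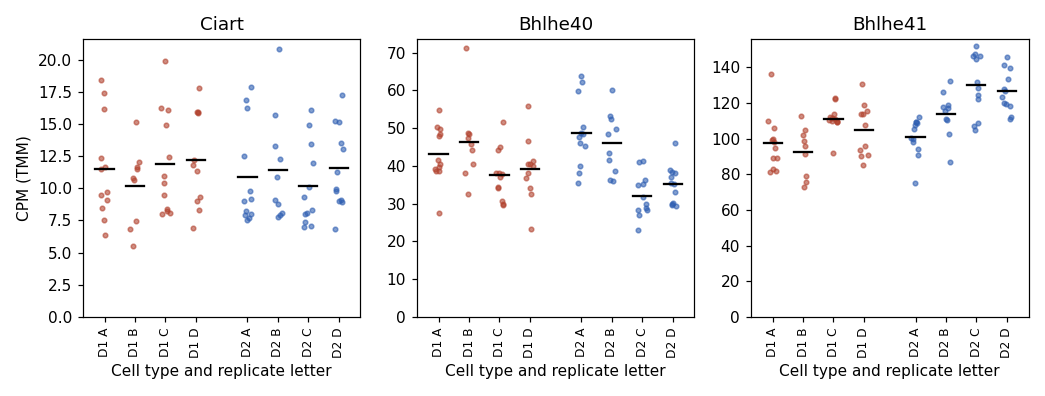
CPM of each repressor by cell type and letter A to D (the single library of letter E is left out); points are libraries of all times and both sexes, and lines are means. In D2 libraries Bhlhe40 is higher in letters A and B than in C and D, and Bhlhe41 is lower in A than in C and D.

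To describe which genes had the most alike daily courses, the 24 group means of log2(CPM + 1), each centred on its cell type and sex, were correlated across 11807 genes with a mean of at least 5 CPM. These means share libraries, depth and TMM scaling, and the values are descriptions. Ciart was most like ENSMUSG00000059824 (Pearson r = 0.89) and ENSMUSG00000040675 (r = 0.88), and most opposed to ENSMUSG00000036333 and ENSMUSG00000055116 (r = -0.84 each). ENSMUSG00000059824 peaked at ZT 9.6 h in D1 and ZT 10.8 h in D2 neurons, and ENSMUSG00000055116 at ZT 23.8 h in D1 and ZT 22.9 h in D2. Bhlhe40 was most like ENSMUSG00000020785 (r = 0.91) and ENSMUSG00000026452 (r = 0.85), and most opposed to ENSMUSG00000027435 (r = -0.81) and ENSMUSG00000036466 (r = -0.79). Bhlhe41 was most like ENSMUSG00000031729 (r = 0.89) and ENSMUSG00000053907 (r = 0.85), and most opposed to ENSMUSG00000029161 (r = -0.88) and ENSMUSG00000051627 (r = -0.87). In the edgeR fit without the letters, ENSMUSG00000059824 and ENSMUSG00000055116 passed the rhythm test in both cell types. ENSMUSG00000040675, ENSMUSG00000020785 and ENSMUSG00000053907 passed it in D2 only. The other genes listed here by identifier passed it in neither, so an alike course is not a called rhythm. Among the repressors themselves, r was 0.72 between Ciart and Bhlhe40, 0.52 between Ciart and Bhlhe41 and 0.43 between Bhlhe40 and Bhlhe41. A list of 22 other clock genes, held by symbol, could not be matched to the identifiers and is not scored here.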

How the data were processed

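The counts the authors deposited are unnormalised whole numbers of reads per gene, and the table's name speaks of a log CPM filter, whose threshold the sources used here do not give. Per the submitters' processing notes, FastQC 0.11.7, HISAT2 and HTSeq 0.10.0 were used, and the builds GRCm38 and GRCh38 are named without roles. Per the labels' protocols, homogenate and astrocyte data also belong to the study; they were not used here. RefSeq tables of GRCm38.p6 gave the genes and promoters of the repressors; 0 of their 49997 entries carry an Ensembl identifier, so 0 of the 14355 deposited identifiers could be matched.

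The quasi-likelihood F-test of edgeR 4.0.16 (R 4.3.3) was run with TMM scaling on all 14355 genes, with Benjamini-Hochberg adjustment over all of them and a threshold of 0.05. Cell types were fitted apart for rhythm and sex, and together for the tests of their difference. Differences in amplitude and peak between cell types, with SE and 95% interval, combine the 2 separate fits. Mean, 24 h cosine and sine were fitted for each sex. Differences are D1 minus D2 and male minus female, and 10 comparisons were made per gene. Standard errors of amplitude and peak come from the fitted covariance, and 95% intervals cover single genes. The scripts were tested on simulated counts.

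The letters of the titles were checked as replicate pairs by correlating deviations from the group mean. In D2 all 243 same-letter pairs exceeded 0.1; in D1 70.0% of 223 did and the lowest was -0.63. Letters were therefore taken as pairing D2 libraries only, and the report gives a blocked value for a D2 result if the call changed or a count moved by over 1.5 times. Among 129 pairs of libraries of the same group, none was a copy: the lowest mean chi-square per gene was 4.24.

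Alternatives were DESeq2 1.42.0, RLE size factors, filterByExpr, the letter as a block, each letter left out, leaving out 3 D1 libraries, time as 6 levels, 1 cosine for both sexes, and CPM on plain totals. The repressors, the lists and the alternatives were chosen with earlier results of these data known. The repressors were always named, and for each the 2 genes of highest and the 2 of lowest correlation are given by identifier.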

Additional observations from a re-analysis of the deposited data

Results flagged for a closer look

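Over 36 combinations of gene, cell type and time, with 6 to 8 libraries each, 2 single values lay far from the others by Dixon's test; chance gives such a value in about 1 in 20. Bhlhe40 was at 71.2 CPM in the male D1 library of ZT10 letter B, against 37.2 to 48.3 CPM in the other 7 D1 libraries of that time. This library is 1 of the 3 D1 libraries that stand apart. Bhlhe41 was at 146 CPM in the female D2 library of ZT22 letter C, against 98.0 to 119 CPM in the other 7 D2 libraries of that time.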

How the results depend on the processing

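Of 294 alternative values for tests of the 3 repressors, 279 kept direction and side of the threshold, 2 passed where the reported value had not, 4 no longer passed and 9 turned direction. None of the 9 passed the threshold in either fit. With 1 letter left out, the D1 minus D2 level of Bhlhe40 ran from -0.018 to 0.12 on the log2 scale, negative without letter C. The male minus female level in D1 ran from -0.042 to 0.094 for Ciart, negative without letters A and D, and from -0.0090 to 0.11 for Bhlhe40, negative without A. The size of the rhythm difference between cell types ran from 0.054 to 0.11 for Ciart, turned without D, and that between the sexes in D1 from 0.068 to 0.16 for Bhlhe40, turned without B. The Bhlhe40 difference also turned without the 3 libraries that stand apart (0.13), and without them with the block (0.13). The departure of Bhlhe41 from a cosine in D1 ran from -0.11 to 0.035 at the time where it was largest, its course turned without B. The 2 were the Bhlhe40 rhythm in D2 neurons with DESeq2 (amplitude 0.24, adjusted p = 0.0372) and with the letter as a block (0.23, edgeR adjusted p = 3.56e-05). The 4 were the Bhlhe41 rhythm in D2 neurons with time as 6 levels (0.17) and in 3 of the 4 fits that left out a letter (0.16 to 0.17 over all). The 36 mean CPM values recomputed on plain totals moved by less than 1 SD. Of 98 counts of genes, 46 moved by over 1.5 times. With DESeq2 the counts were 215 for rhythm in D1, 669 for rhythm in D2, 32 for its difference between cell types, 56 for sex in D1 and 2 for the sex difference of rhythm in D2. With the letter as a block they were 162, 3198, 76, 1042 and 3 for the same comparisons, 5471 for level between cell types, 1357 for sex in D2, and 4 in D1 and 1 in D2 for departure from a cosine. The block within cell type gave 465 for the rhythm difference and 6572 for level. Without the 3 D1 libraries that stand apart, counts were 177 for rhythm in D1 and 1 for the rhythm difference, and with the block as well 293 and 30, with 6057 for level, 33 for sex in D1 and 16 for departure in D1. Time as 6 levels gave 27 for rhythm in D1 and 121 in D2. With 1 letter left out, counts were 13 to 54 for rhythm in D1, 55 to 261 for rhythm in D2, 0 to 7 for the rhythm difference, 1767 to 6912 for level, 2 to 294 for sex in D1, 7 to 28 for sex in D2, 0 to 1 for the sex difference of rhythm in D2 and 0 to 1 for departure in D1. In D1, where letters were not taken as pairing libraries, the block changed no call of a repressor. In D2 it changed that of the Bhlhe40 rhythm only. Causes of these movements were not tested. Ciart, with as few as 46 counts in a library, carries the most counting error of the 3.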
